A study of Mus musculus with 48 samples.

Results

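In the CD8+ tumor repertoires of 4 mice, 292 abundant clones were traced to the CD8+ CD44hi cells of the draining lymph nodes (dLNs) of the same mouse. A clone was a TCRβ with one V segment, one J segment and one CDR3 nucleotide sequence, and a clone was taken as abundant where the mean of its share of reads over the 4 CD8+ tumor libraries of a mouse reached 0.1%. There were 55, 69, 87 and 81 such clones in mice 5, 6, 7 and 8, out of 345459 CD8+ tumor clones over the 4 mice (0.0845%). Because the clones were chosen by their measured tumor frequency, their tumor levels and their enrichment in the tumor over the dLN are given as a description, without a test. Within a mouse, clones are numbered by their mean tumor frequency, from the highest down.

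The mice were female C57BL/6 mice, 8 weeks old, that carried Lewis lung carcinoma (LLC) tumors under the skin of both sides of the back, and all samples were taken on day 13 after inoculation. LLC is a transplantable mouse lung carcinoma line. Each tumor was divided into 2 fragments, and TCRβ transcripts of CD8+ and of CD4+ T cells were sequenced from each fragment, and from CD44hi cells of both subsets in the left and the right dLN, which gave 48 libraries. Cells reached by an antibody given intravenously had been excluded from the sorts. No mouse without a tumor was included, so a dLN level is not set against a node without a tumor. The libraries hold TCRβ transcripts alone, so the sort gates could not be checked by other marker genes.

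A T cell carries a TCRβ chain that is joined in the thymus from 1 V, 1 D and 1 J segment, and the CDR3 loop spans this junction and contacts the peptide presented on MHC. Bases added or removed at the junction make most CDR3 nucleotide sequences rare, so a sequence can serve as a tag of the descendants of 1 cell. Naive CD8+ T cells meet tumor antigens carried to the dLN by dendritic cells, divide there, take on high levels of the adhesion receptor CD44, and reach the tumor through lymph and blood.

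The 3 most abundant clones of each mouse are shown first, since the account of the dLNs starts from them. Capitals mark the bases between the end of the V segment and the start of the J segment.
Mouse 5 clone 1 (TRBV26, TRBJ1-3): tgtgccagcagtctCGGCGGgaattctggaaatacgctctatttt
Mouse 5 clone 2 (TRBV26, TRBJ1-2): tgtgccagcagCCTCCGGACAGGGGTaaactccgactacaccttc
Mouse 5 clone 3 (TRBV4, TRBJ2-1): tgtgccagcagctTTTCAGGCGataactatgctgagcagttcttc
Mouse 6 clone 1 (TRBV26, TRBJ1-6): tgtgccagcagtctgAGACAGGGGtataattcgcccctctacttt
Mouse 6 clone 2 (TRBV13-1, TRBJ2-1): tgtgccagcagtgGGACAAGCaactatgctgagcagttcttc
Mouse 6 clone 3 (TRBV26, TRBJ1-2): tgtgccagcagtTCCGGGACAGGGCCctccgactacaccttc
Mouse 7 clone 1 (TRBV20, TRBJ1-1): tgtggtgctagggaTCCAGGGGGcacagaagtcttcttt
Mouse 7 clone 2 (TRBV3, TRBJ2-7): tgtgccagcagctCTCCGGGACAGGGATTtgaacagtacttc
Mouse 7 clone 3 (TRBV5, TRBJ1-3): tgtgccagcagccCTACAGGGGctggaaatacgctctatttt
Mouse 8 clone 1 (TRBV26, TRBJ1-5): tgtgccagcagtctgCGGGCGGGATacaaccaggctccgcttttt
Mouse 8 clone 2 (TRBV26, TRBJ1-6): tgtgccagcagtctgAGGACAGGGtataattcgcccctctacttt
Mouse 8 clone 3 (TRBV13-2, TRBJ1-3): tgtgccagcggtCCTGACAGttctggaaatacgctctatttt
The most abundant clone not detected in either dLN was clone 3 in mouse 7, and in the other mice it was one of those that follow, with the same marking.
Mouse 5 clone 21 (TRBV16, TRBJ2-7): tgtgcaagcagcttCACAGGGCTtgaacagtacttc
Mouse 6 clone 15 (TRBV14, TRBJ2-2): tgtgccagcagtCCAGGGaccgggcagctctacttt
Mouse 8 clone 19 (TRBV13-1, TRBJ2-4): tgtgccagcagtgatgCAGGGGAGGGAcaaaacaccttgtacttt

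The CD8+ tumor libraries held 1243913 to 4840722 reads and the CD8+ dLN libraries 1016113 to 1663878 reads. The left dLN of mouse 5 and the right dLN of mouse 8 stood apart from the other pairs of libraries. As the geometric mean of the percentage of reads in shared clones, they overlapped by 8.13%, against 2.53% to 4.20% in the other 23 pairs of dLNs of different mice and 9.07% to 10.9% for the dLNs of one mouse. None of the abundant clones of mouse 5 and 1 of those of mouse 8 were among their 1573 shared clones. With these shared clones removed, the abundant clones held 1.06% of dLN reads, as with them, 22.1% of the abundant clones were in 1 dLN only and 20.2% in neither, against 22.3% and 20.1% with them.

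In the tumors, the abundant clones made up 77.9%, 78.3%, 57.9% and 77.9% of CD8+ reads in mice 5, 6, 7 and 8. The lowest mean frequencies taken in were 0.104%, 0.106%, 0.100% and 0.101%, and the highest left out were 0.0979%, 0.0881%, 0.0999% and 0.0994%. Of the 292 clones, 288 were found in all 4 fragments of the mouse. The highest fragment exceeded the lowest by a median of 1.67 ± 0.0608 times (SD over mice, n = 4). Mouse 6 clone 1, the largest of all, made up 14.998% and 14.3% of the left and 13.9% and 12.1% of the right fragments. Mouse 8 clone 1 made up 16.1% and 11.8% on the left and 11.3% and 8.22% in the right fragments. Both used TRBV26.

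Most abundant tumor clones were found again in the dLNs. Of the 292, 168 were detected in both dLNs of the mouse, 63 in 1 dLN only and 61 in neither, where a clone was detected if it had at least 1 read. Per mouse, 57.6% ± 4.24 of the clones were in both dLNs, 22.3% ± 5.83 in 1 only and 20.1% ± 6.86 in neither (SD, n = 4 mice). Among all other CD8+ tumor clones, 6.54% were detected in at least 1 dLN of the mouse and 1.01% in both. These other clones had lower tumor frequencies by definition, so their shares stand here only as the background of the file.

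In the left dLN, 81.8%, 78.3%, 59.8% and 65.4% of the abundant clones of mice 5 to 8 were detected, and in the right dLN 56.4%, 71.0%, 65.5% and 71.6%. Mouse 5 stood out by its sides, with 15 clones in the left dLN only and 1 in the right dLN only. The right dLN library of mouse 5 was also the smallest of the 8 by reads, and with all dLN libraries drawn to its 1016113 reads these counts were 15 and 1 again. It came from the fewest sorted cells of the 8 as well, with a 95% Wilson limit of 0.00747% at 0 estimated cells against 0.00563% in the left dLN, and the part of this in the counts was not tested. In mice 7 and 8 more clones were found in the right dLN only, 9 against 4 and 12 against 7.

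**Figure D1:**
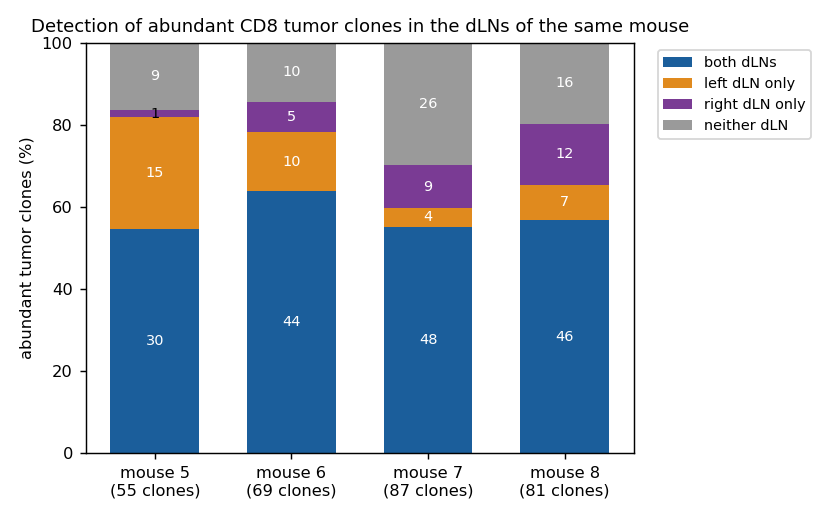
Percentage of the abundant CD8+ tumor clones of each mouse (vertical axis) found in both dLNs, in the left or right dLN only, or in neither dLN of the same mouse, with the number of clones in each part of a bar. The part found in both dLNs lay between 54.5% and 63.8% in the 4 mice.

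The same clones were also looked for in the dLNs of the other mice. Of the 292, 35 (11.99%) had a read in at least 1 of the 6 dLN libraries of the other mice, which were 15 of 55, 7 of 69, 6 of 87 and 7 of 81 in mice 5 to 8. In a single dLN library of another mouse, 0% to 18.2% of a mouse's abundant clones had a read, with a mean of 3.25% ± 1.59 (SD, n = 4 mice). The highest value belonged to the clones of mouse 5 in the left dLN of mouse 6. With at least 6 reads needed for detection, the mean fell to 2.13%. Of the 231 clones detected in their own dLNs, 226 had a higher share there than in any dLN of another mouse.

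Over all mice, clones with a lower tumor frequency were more often absent from the dLNs. Among the 70 clones at or above 1% of tumor reads, 55 were in both dLNs and 7 in neither (10.0%). Of the 95 clones from 0.3% to 1%, 57 were in both and 13 in neither (13.7%). Of the 127 clones under 0.3%, 56 were in both and 41 in neither (32.3%). From the highest class down, the absent clones numbered 0 of 15, 3 of 19 and 6 of 21 in mouse 5 and 2 of 22, 4 of 25 and 4 of 22 in mouse 6. In mouse 7 they were 3 of 12, 5 of 27 and 18 of 48 and in mouse 8 2 of 21, 1 of 24 and 13 of 36, so in these mice a smaller part was absent in the middle class than in the highest. Among the 10 most abundant clones of each mouse, all were detected in a dLN in mice 5, 6 and 8, and 8 in mouse 7.

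The clones absent from both dLNs held 2.59%, 5.24%, 13.1% and 4.91% of CD8+ tumor reads in mice 5 to 8. The largest was mouse 7 clone 3, with TRBV5 and TRBJ1-3, at 3.77% and 3.71% of the left and 5.35% and 4.02% of the right tumor fragments. It had no read among the 1663878 reads of the left or the 1430673 of the right dLN library. A count of 0 allows a share of up to 0.000180% and 0.000210% of these reads, as 3 reads of the total, which covers the counting of reads only. The number of sorted cells set a wider limit: with 0 estimated cells, the 95% Wilson interval reached 0.00633% on the left and 0.00431% on the right. Mouse 6 clone 15, the largest absent clone of that mouse, was uneven within the tumors, with 0.341% and 0.357% in the left and 3.62% and 1.012% in the right fragments.

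Together the abundant clones held 1.06% ± 0.113 of the CD8+ CD44hi dLN reads (SD, n = 4 mice), against 73.0% ± 10.1 of the tumor reads. Their share was 1.51%, 0.960%, 0.976% and 1.10% in the left dLNs and 0.514%, 0.975%, 1.12% and 1.35% in the right dLNs of mice 5 to 8. The left dLN of mouse 5 was the highest and its right dLN the lowest of the 8. In bulk libraries of this kind, fewer cells of a clone and less TCRβ RNA per cell cannot be told apart.

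Within the dLNs, abundant tumor clones took many of the highest ranks. They filled 36 of the 80 places among the 10 most frequent clones of the 8 dLN libraries and 143 of the 800 places among the 100 most frequent. In the right dLN of mouse 7 they filled 8 of 10 places, and in the right dLN of mouse 8 they filled 1. The most frequent clone was an abundant tumor clone in 4 of the 8 dLN libraries.

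Mouse 8 clone 66, with TRBV12-1 and TRBJ2-7, had the highest mean over the dLNs among the abundant clones of that mouse. It made up 0.227% of the left and 0.188% of the right dLN, with 95% Wilson intervals on estimated cells of 0.193% to 0.267% and 0.161% to 0.220%. In the tumor it averaged 0.138% ± 0.0180 (SD, 4 fragments), and it was the only abundant clone below 1-fold, at 0.667. The corresponding clone of mouse 5 was clone 15, with TRBV5 and TRBJ2-5, at 0.144% of the left and 0.0877% of the right dLN. In mouse 6 it was clone 6, with TRBV4 and TRBJ1-2, at 0.0781% and 0.138%, and in mouse 7 clone 20, with TRBV14 and TRBJ1-2, at 0.0808% and 0.122%. In these 3 clones the tumor level was higher, at 1.13%, 2.97% and 0.6504%. None of the 4 clones was among the 3 most abundant in its tumors. The same V segment, J segment and bases as mouse 6 clone 6 were also found in 2 dLN libraries of other mice, with up to 514 reads (0.0506%). The origin of these reads was not tested.

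The enrichment of a clone was its mean tumor frequency divided by its mean frequency in the 2 dLNs, with 3 reads in place of 0. Its median was 120-, 129-, 113- and 98.8-fold in mice 5 to 8. Among the 231 clones detected in a dLN the median was 61.1-fold, with a range from 0.667 to 5048. Of these, 203 were at least 10-fold, 90 at least 100-fold and 8 at least 1000-fold higher in the tumor, 27 lay between 1- and 10-fold, and 1 was lower. For the 61 clones absent from both dLNs, the tumor level was 16.3 to 792 times the mean of the 2 Wilson limits at 0 cells. Values from 1000-fold up rested on few dLN cells, and against the upper Wilson limits of their dLN levels these 8 clones were 71.6 to 771 times higher in the tumor. With 3 sorted cells in place of 0 for every clone, the median over all 292 was 54.1-fold, against 112-fold with 3 reads.

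Within the abundant clones, the tumor and dLN levels were only loosely related. Among clones with a dLN read, Pearson's r of the log10 frequencies was 0.433, 0.315, 0.0794 and 0.334 in mice 5 to 8, over 46, 59, 61 and 65 clones. The clones of a mouse share their libraries, so these values describe the libraries. The choice of clones cut the tumor range at 0.1%, which can lower r, so no relation over all CD8+ tumor clones can be read from them. Mouse 7 clone 2, with TRBV3 and TRBJ2-7, made up 4.89% ± 0.877 of the tumor reads (SD, 4 fragments) and had 9 and 20 reads in the left and right dLN, or 0.000541% and 0.00140%. These reads stood for 0 and 1 estimated cells, so that its 5048-fold enrichment in reads was 771-fold against the upper Wilson limits. Mouse 6 clone 2, at 6.10% ± 1.31 of the tumor (SD, 4 fragments), had 77 reads in the left dLN and none in the right.

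**Figure D2:**
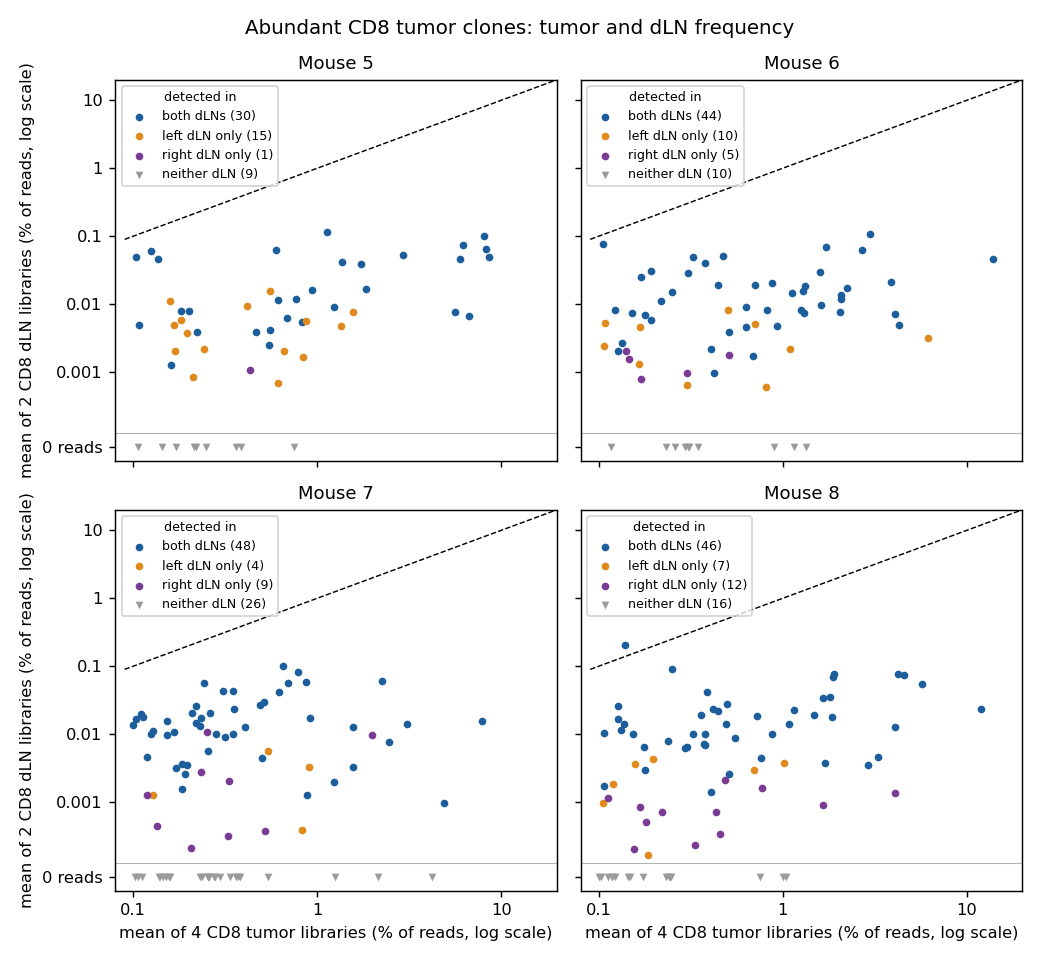
Mean share of reads in the 2 CD8+ dLN libraries (vertical, log scale, %) against the mean of the 4 CD8+ tumor libraries (horizontal, log scale, %) for each abundant clone, with 1 panel per mouse and colors for the dLNs in which it was detected. Clones with 0 reads in both dLNs stand as triangles below the line, and of the points above it, 1 in mouse 8 lies over the dashed line of equal shares.

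Left and right were then compared. The levels of the 168 clones found in both dLNs differed by a median of 2.21 times between the dLNs and by 1.205 times between the tumors of the 2 sides, and the dLN difference was the larger one for 144 of them. Of these 168, more than a 2-fold difference was seen for 93 clones between the dLNs and for 12 between the tumors. Among all abundant clones with reads in both tumors, 45 differed by more than 2-fold between the tumors. The clones were chosen by these tumor levels. Pearson's r of the log10 frequencies between the sides was 0.604, 0.689, 0.426 and 0.602 in the dLNs and 0.985, 0.939, 0.961 and 0.947 in the tumors of mice 5 to 8, over 30, 44, 48 and 46 clones. A dLN library is 1 library per side and mouse while a tumor side is the mean of 2 fragments, and dLN levels rest on fewer cells of a clone, so the part of sampling in this difference was not tested.

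Clones that differed between the dLNs were called on estimated cells, the share of reads times the number of sorted cells, by Fisher's exact test, two-sided, over all clones of a mouse. With a q-value under 0.01 and a difference above 2-fold, 8 of the 226 abundant clones with at least 1 estimated cell were called (3.54%), against 0.0828% of all 233132 clones tested. The test compares 2 libraries, not 2 conditions. Of the 8 clones, 5 were higher in the left dLN and 3 in the right dLN, and mice 5 to 8 had 4, 0, 3 and 1 of them. Most tested clones had too few cells to be called: among clones with 20 or more estimated cells over both dLNs, 7 of 88 abundant tumor clones (7.95%) and 34.4% of all 343 clones were called. That class was set after the data were seen, and 17 and 34 of the clones called in mice 5 and 8 belonged to those shared by the left dLN of mouse 5 and the right dLN of mouse 8. In mice 6 and 7 alone, it held 2 called of 48 abundant clones and 22.2% called of 171 clones.

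Mouse 7 clone 6, with TRBV19 and TRBJ2-1, made up 0.00325% of the left and 0.117% of the right dLN, or 2 and 105 estimated cells (Fisher's exact test, q = 1.18e-16). Its tumor levels were 1.97% and 1.85% in the left fragments and 1.46% and 3.68% in the right ones, so the sides overlapped in the tumor. Mouse 5 clone 3, with TRBV4 and TRBJ2-1, showed the opposite side, at 0.182% in the left and 0.0166% in the right dLN (124 and 9 estimated cells, Fisher's exact test, q = 6.24e-17), while its left and right tumors held 8.63% and 7.53%. In mouse 8 the called clone was clone 34, with TRBV4 and TRBJ1-1, at 0.002002% and 0.0423% (Fisher's exact test, q = 7.25e-05). Over the 8 called clones the dLN shares of reads differed by 6.59 to 71.0 times, the highest value being that of mouse 7 clone 28 with 15 and 0 estimated cells, and the tumors by 1.02 to 1.98 times. The side that was higher in the dLN was also the higher one in the tumor for 7 of the 8.

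**Figure D3:**
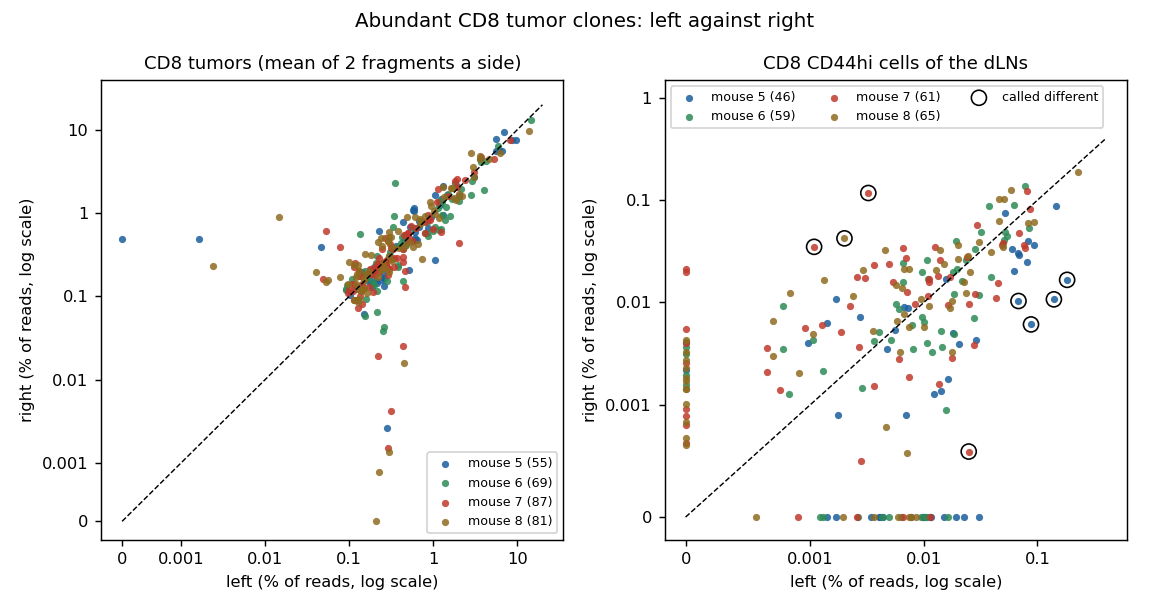
Right against left share of reads (log scales, %) of each abundant clone in the CD8+ tumors, as the mean of 2 fragments a side (left panel), and in the dLNs (right panel, clones detected in at least 1 dLN), with colors for mice and rings for the 8 clones called different. Points at the tick 0 had no reads on that side, and the dLN points spread wider around the dashed line of equal shares than the tumor points.

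For all clones found in both dLNs, the tumor side and the dLN side were compared by their log2 ratios of left over right. Spearman's rho was -0.166, 0.0313, 0.267 and -0.151 in mice 5 to 8, over 30, 44, 48 and 46 clones, and 14, 24, 28 and 21 of them were higher on the same side in tumor and dLN. The 63 clones found in 1 dLN only had a median of 48 reads there, between 5 and 418, or a median of 3 estimated cells, and none was called. In the tumors, 27 of the 63 were higher on the side of that dLN. The median log2 ratio of left over right tumor frequency was -0.20, 0.62, -0.17 and -0.16 for clones of the left dLN only and 0.08, 0.42, 0.28 and -0.29 for clones of the right dLN only, in mice 5 to 8. The difference between these medians was -0.10 ± 0.31 (SD, n = 4 mice), less than the spread between mice.

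The V segments of the abundant clones were led by TRBV26 and TRBV5, with 34 clones each, and TRBV4, with 30. The order depended on the threshold, since TRBV26 and TRBV4 led at 0.05% and TRBV5 at 0.2%. On the GRCm38 build they lie on chromosome 6 and are annotated as TCR V genes, TRBV26 from 41227505 to 41227993, TRBV5 from 41062332 to 41062803 and TRBV4 from 41059394 to 41059886. TRBV26 was used by 12.7%, 13.0%, 8.05% and 13.6% of the abundant clones of mice 5 to 8 and by 2.47% to 2.56% of all other CD8+ tumor clones. TRBV4 was used by 7.27%, 11.6%, 11.5% and 9.88%, against 3.76% to 4.10% of the others. TRBV5 had the widest range between mice, with 18.2%, 14.5%, 5.75% and 11.1%, against 4.87% to 5.09%. In each mouse the share of all 3 segments was higher among the abundant clones than among the others. TRBV12-2 and TRBV3, chosen after their values were seen, were lower in every mouse, with 2.90% to 7.27% against 11.7% to 12.1% and 1.45% to 2.47% against 7.42% to 7.73%.

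By these segments the clones differed in how they were found in the dLNs. Of the TRBV26 clones 26 of 34 were in both dLNs and 4 in neither, of the TRBV4 clones 26 of 30 and 2, and of the TRBV5 clones 17 of 34 and 9. Their median enrichments with 3 reads in place of 0 were 76.0-, 43.1- and 211-fold, with 3 sorted cells 61.3-, 39.0- and 75.2-fold, and among detected clones alone 73.2-, 39.0- and 97.6-fold. Clones of 1 segment came from all 4 mice in unequal numbers, and no test was made of these shares.

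**Figure D4:**
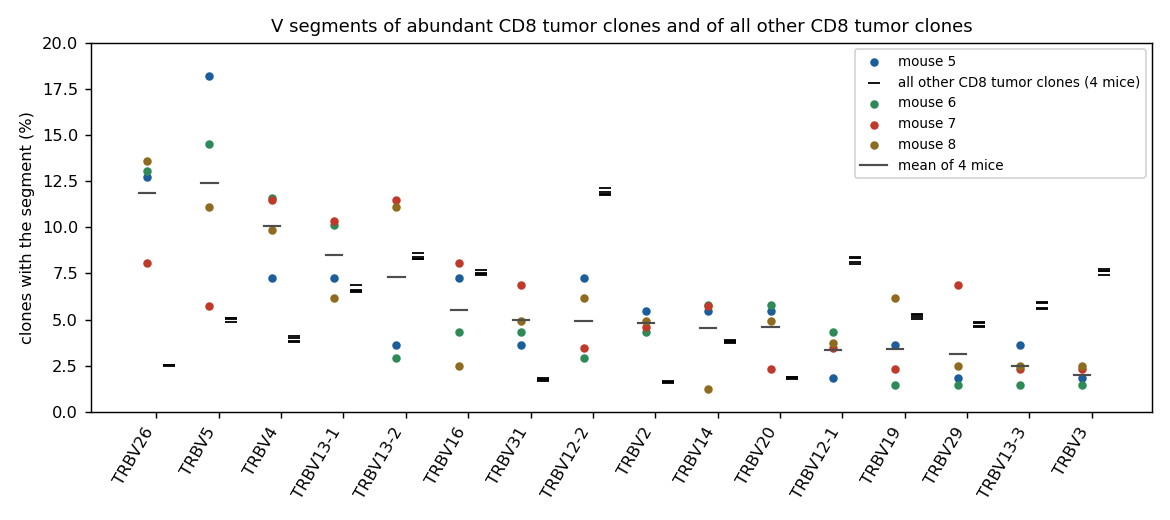
Percentage of clones with each V segment (vertical axis) among the abundant CD8+ tumor clones, as 1 point per mouse with the mean of 4 mice as a line, and among all other CD8+ tumor clones of the 4 mice, as black dashes, for the 16 segments with most abundant clones. TRBV26 points lie between 8.05% and 13.6%, above dashes at 2.47% to 2.56%.

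Among J segments, TRBJ2-7 was the most used with 47 clones, followed by TRBJ2-1 with 39 and TRBJ1-1 with 35. They lie on chromosome 6 of GRCm38 from 41543810 to 41543856, from 41542754 to 41542803 and from 41533864 to 41533911, and are annotated as TCR J genes. TRBJ2-7 also had the widest range between mice, with 23.6%, 10.1%, 16.1% and 16.05% of the abundant clones, against 21.7% to 22.4% of the others. TRBJ2-1 took 14.5%, 11.6%, 14.9% and 12.3%, against 14.6% to 15.03%. TRBJ1-1 took 9.09%, 10.1%, 9.20% and 18.5%, against 8.93% to 9.19%.

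The CDR3 of the abundant clones was 13.8 ± 0.0706 residues long (SD of the mean length over 4 mice), with a range from 8 to 17. All other CD8+ tumor clones had a mean of 14.1 ± 0.0158 and the other dLN clones 13.9 ± 0.0234. Mean lengths of the abundant clones were 13.8, 13.8, 13.9 and 13.8 in mice 5 to 8, each below that of the other tumor clones of the mouse. At 13 residues the abundant clones had 25.3% of their number, against 17.6% of the other tumor clones, and at 14 residues 25.4% against 31.3%. Between the V end and the J start they had 9.39 ± 0.356 bases, and the other tumor clones 10.1 ± 0.0643 (SD of the mean over 4 mice).

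**Figure D5:**
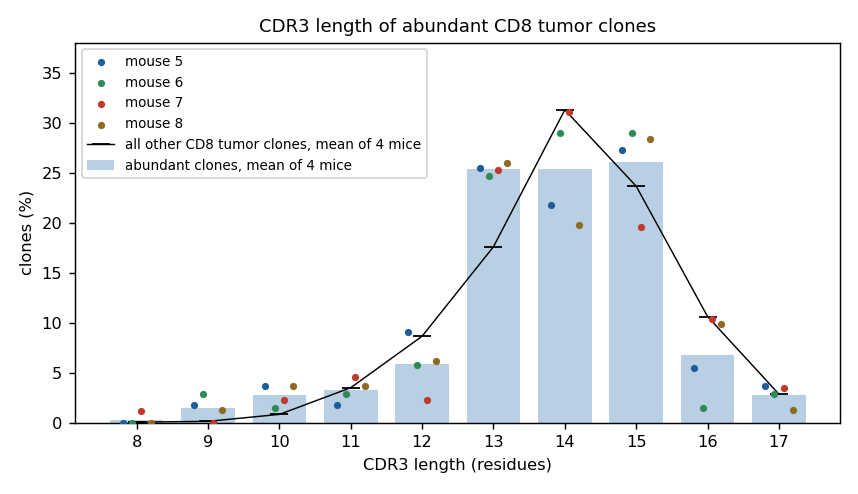
Percentage of clones (vertical axis) by CDR3 length in residues for the abundant CD8+ tumor clones, with bars for the mean of 4 mice and points for each mouse, and for all other CD8+ tumor clones, as a black line of means. The bar at 13 residues stands above the line, at 25.3% against 17.6%.

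Similar CDR3s were found between mice. Of the 630 pairs of abundant clones of different mice with the same V segment and CDR3 length, 26 had the same residues throughout, 35 differed at 1 residue and 29 at 2. The 64 pairs with 1 or 2 differences involved 57 clones and all had the same J segment as well. They made up 10.2% of these pairs, while within mice 29 of 189 pairs (15.3%) differed at 1 or 2 residues. Of these 29, 28 had the same J segment. The J segment gives the end of the CDR3, so pairs chosen as this alike mostly share it. No rate for other CD8+ tumor clones of the same V segment and length is given here, so these shares have no background. TRBV4 gave 20 of the 64 pairs, TRBV26 gave 18 and TRBV20 gave 11. Clones enter several pairs, so pairs are not independent.

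The most abundant similar pair was mouse 6 clone 1 and mouse 8 clone 2, both with TRBV26 and TRBJ1-6, at 13.8% and 5.73% of the tumor reads of their mice. TRBJ1-6 lies on chromosome 6 of GRCm38 from 41535554 to 41535606. They differed by Q7T, with positions counted from 1 at the first residue of the CDR3, and mouse 8 clone 16 differed from mouse 6 clone 1 by Q7G. Capitals mark the codon of that position.
Mouse 6 clone 1: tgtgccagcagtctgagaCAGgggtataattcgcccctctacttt
Mouse 8 clone 2: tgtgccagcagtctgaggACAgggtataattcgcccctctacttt
Mouse 8 clone 16: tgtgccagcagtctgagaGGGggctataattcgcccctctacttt
All 3 were detected in both dLNs of their mice. Mouse 6 clone 1 made up 0.0512% and 0.0405% of the left and right dLN, mouse 8 clone 2 0.0460% and 0.0632%, and mouse 8 clone 16 0.0149% and 0.0237%. Their enrichments were 302-, 105- and 76.0-fold. Mouse 6 clone 21, which had the residues of mouse 8 clone 2, differed from mouse 8 clone 16 by T7G.

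Of the other pairs with 1 difference, taken in the order of the lower tumor level, mouse 6 clone 14 and mouse 8 clone 10, with TRBV20 and TRBJ1-2, differed by V5T and made up 1.60% and 1.88% of tumor reads. With TRBV4 and TRBJ1-2, mouse 6 clones 6 and 12 differed from mouse 7 clone 25 by Q7A and T7A. With TRBV4 and TRBJ1-1, mouse 5 clone 25 and mouse 6 clone 8 had the same residues and both differed from mouse 8 clone 31 by G5N. These clones were found in both dLNs of their mice, with enrichments from 17.0- to 130-fold. Some pairs with 2 differences had higher tumor levels than the TRBV4 pairs and included absent clones. Mouse 7 clone 11, at 1.25% of tumor reads and in neither dLN, differed from mouse 6 clone 6 by S4T and Q7A, and mouse 7 clone 3, also in neither, differed from mouse 6 clone 26 by Q5P and Y8A. In both cases the clone of mouse 6 was in both dLNs, and these pairs were picked after their values were seen.

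The same residues in different mice came mostly with different bases. The 26 identical pairs fell into 12 groups of 31 clones, and in 10 of the groups there was more than 1 base sequence. In 4 cases the same bases were found in an abundant clone of 2 mice. The largest group, with TRBV26 and TRBJ1-1, had 5 clones of 3 mice and 5 base sequences. Another with TRBV26 and TRBJ1-6 had 3 clones of 3 mice and 2 base sequences. These groups were chosen after their values were seen and are shown in this order, with capitals for the positions at which a group differs.
Mouse 5 clone 8: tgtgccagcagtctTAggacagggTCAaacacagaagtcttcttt
Mouse 6 clone 67: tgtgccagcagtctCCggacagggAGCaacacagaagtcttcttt
Mouse 8 clone 45: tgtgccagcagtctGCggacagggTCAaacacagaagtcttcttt
Mouse 8 clone 52: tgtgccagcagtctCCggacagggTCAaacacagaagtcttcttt
Mouse 8 clone 57: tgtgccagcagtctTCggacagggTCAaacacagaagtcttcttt
Mouse 6 clone 21: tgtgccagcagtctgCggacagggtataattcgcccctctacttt
Mouse 7 clone 37: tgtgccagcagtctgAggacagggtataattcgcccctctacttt
Mouse 8 clone 2: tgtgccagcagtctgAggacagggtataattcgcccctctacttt
In the first group the highest tumor level was 2.92%, of mouse 5 clone 8, and the lowest 0.109%, and 3 of the 5 clones were found in both dLNs. In the second, mouse 7 clone 37 had 9 reads in the right dLN of its mouse and none in the left, while mouse 8 clone 2, with the same bases, had 690 and 932 reads in its dLNs.

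Over the 31 clones with the residues of an abundant clone of another mouse, 22 were in both dLNs and 3 in neither. With the clones that had a similar CDR3 in another mouse added, 49 of 73 were in both (67.1%) and 15 in neither (20.5%). Of the 219 clones with no identical or similar CDR3 in another mouse, 119 were in both dLNs (54.3%) and 46 in neither (21.0%). The mice were not alike in this. In mouse 7, of the clones with an identical or similar CDR3 47.4% were in both dLNs and 42.1% in neither, against 57.4% and 26.5% of those without. In mouse 8 the clones with identical residues, only 7, were absent from both dLNs in 28.6% and the 63 without a like CDR3 in 19.0%. Bases between V and J numbered 8.45, 8.85 and 9.52 in the 3 classes (means over clones), but in mouse 8 9.71 with identical residues and 9.19 without a like CDR3. In all CD8+ libraries, 142 of the 292 had the residues, V and J segment of some CD8+ tumor or dLN clone of another mouse, 49.4% ± 11.1 per mouse against 31.0% ± 2.19 of all other tumor clones (SD, n = 4). With different bases it was 35.5% ± 3.99 against 27.7% ± 2.02.

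The TRBV26 clones were alike at the start of the loop. A leucine and an arginine at CDR3 positions 5 and 6 were found in 20 of the 34, with 4 of 7, 6 of 9, 4 of 7 and 6 of 11 in mice 5 to 8. This feature was chosen after the sequences were seen. Among all other TRBV26 clones of the CD8+ tumors 6.70% had it, and among the other TRBV26 clones of the dLNs 6.01%. Of the abundant clones with other V segments, 5 of 258 had it (1.94%), close to the 2.17% of other tumor clones with those segments. The 20 clones held 12.7%, 18.1%, 1.14% and 19.8% of the CD8+ tumor reads of mice 5 to 8, and 15 of them had a CDR3 of 15 residues. In the dLNs, 16 of the 20 were found on both sides, 3 on 1 side and 1 on neither, with a median enrichment of 76.0-fold.

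In the CD4+ libraries the abundant CD8+ clones were scarce. Of the 292, 154 had a read in a CD4+ tumor library of the same mouse, but together they held 0.0363%, 0.0874%, 0.0779% and 0.0615% of the CD4+ tumor reads of mice 5 to 8. Clones with such reads were a median of 814-fold higher in the CD8+ than in the CD4+ tumor libraries, and at least 59.1-fold higher in each case. In the CD4+ dLN libraries 5 of the 292 were detected. In CD4+ tumor libraries of other mice 2.37% ± 0.694 of the clones had a read (SD, n = 4 mice).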

How the data were processed

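TCRβ transcripts of sorted T cells were sequenced as nested PCR products without molecular identifiers. The authors trimmed reads with Cutadapt 3.2, filtered them and used MiXCR with IMGT segments to call productive TCRβ clones. Each deposited table lists, per clone, a read count and a fraction, which equals count over total, before the down-sampling of the study's methods. The genome build of the authors is not given in the sources used here.

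The mean fraction over the 4 CD8+ tumor libraries of a mouse (0 where absent) chose the clones at 0.1% or more. The members and lists were chosen with earlier results of these data known. Detection needed 1 read. Enrichment used 3 reads in place of 0. Estimated cells were the fraction times the number of sorted cells of the study, rounded. Clones of the 2 dLNs of a mouse were compared by Fisher's exact test, two-sided, with Storey's q-value under 0.01 (lambda 0.5) and a fold above 2. This calling was tested on simulated draws of cells, which held no PCR or library variation. Intervals are 95% Wilson intervals, and intervals and floors cover counting error only. There was 1 library per dLN, so values over mice are means with SDs. Where nothing else is stated, differences between groups of clones were not tested. The smallest dLN library had 1016113 reads, of which 3 make 0.000295%.

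Named were, per mouse, the 3 clones highest in tumors, the clone highest in dLNs, the most abundant absent clone and the differing clone highest in dLNs, then clones of 8 similar pairs, ordered by fewest differences and then by the lower tumor level, and the 3 V and J segments with most clones and those most variable between mice. Alternatives covered read minimums of 2 and 6, draws to 6 reads per sorted cell and to the smallest dLN library, thresholds of 0.05% and 0.2%, clones by CDR3 residues, other floors, other call thresholds and leaving out each mouse. Segment coordinates are from the GENCODE annotation of GRCm38. Tools were scipy 1.17.1, pandas 2.3.3, numpy 2.4.6 and matplotlib 3.10.9 under Python 3.11.15.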

Additional observations from a re-analysis of the deposited data

Results flagged for a closer look

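Of 18 values per mouse that were examined, 1 stood apart from those of the other mice by the gap to its nearest neighbor over the range (Dixon's 95% limit for 4 values), which chance gives for about 1 in 20 such groups and so for about 1 of these 18. The abundant clones of mouse 7 held 57.9% of CD8+ tumor reads, against 77.9% to 78.3% in the other mice. These shares are among the values that chose the clones and are given as a description, not as a test.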

How the results depend on the processing

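Of 64 recomputed values under another setting, 51 moved by less than the spread between mice or, for counts, by less than 1.5 times. Clones in neither dLN remained between 18.4% and 25.8%, and clones in 1 dLN between 19.4% and 24.2%. With thresholds of 0.05% and 0.2%, the abundant clones held 1.22% and 0.851% of dLN reads and their median log2 enrichment was 6.65 and 7.16, against 6.84. The median was 6.19 against the higher dLN and 5.78 with 3 sorted cells in place of 0. Weighted by tumor frequency, TRBV26 made up 23.6% of the reads of the abundant clones (mean of 4 mice), against 11.8% of their number, but 2.94% in mouse 7 and 28.4% to 32.6% in the other mice. Similar pairs between mice numbered 35 with 1 difference only and 104 at 0.05%. In place of 193 clones that differed between dLNs, 442 differed at q under 0.05, with 16 abundant tumor clones in place of 8. Without the clones common to the left dLN of mouse 5 and the right dLN of mouse 8, 120 differed, and 118 of all clones had 20 or more estimated cells and differed. These last settings, the floor of 3 cells and the removal of clones 1 base from a more abundant one were chosen after seeing the data. The causes of these shifts were not tested.

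Leaving out 1 mouse gave 205 to 237 abundant clones, 23 to 45 similar pairs (23 without mouse 6, 28 without mouse 7 and 32 without mouse 8), 117 to 171 differing clones (117 without mouse 8) and 4 to 8 differing abundant clones (4 without mouse 5, 5 without mouse 7). The share in neither dLN was then 16.9% to 22.001%. The difference in tumor side between clones of the left and of the right dLN only was -0.20 to 0.02. For the calls, no paired analysis was possible because each compares the 2 dLN libraries of 1 mouse and is within mice already. Left and right values of the abundant clones are paired within each mouse. These clones were chosen by their measured level, so their values were described and no paired test was made. Depth in sorted cells limits what a 0 in a dLN shows.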
